A study of Mus musculus with 2 samples.

Results

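The genes described here are 40 genes of DNA replication and mitosis, chosen by symbol and split by function into an S-phase set of 21 and a mitotic set of 19. Of these, 39 were found among the 23930 amplicon targets of the deposited table, 20 in the S-phase set and 19 in the mitotic set. The fortieth, Pcna, the sliding clamp of the replication fork, was not analysed here. The rule goes by symbol and uses no measured value, though the list was drawn up with earlier results of these data known.

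The samples were 2 libraries of cranial suture tissue (coronal, sagittal and lambdoid) from wildtype mouse pups at postnatal day 3, and they form 1 group with the same batch number. The labels name suture stem cells as the cell type, but the described material is dissected tissue without a sort, so values are averages over every cell type in the dissection. Nothing in the labels says how many pups went into a library or whether the libraries came from separate pups, so differences between them may be partly technical. Library 1 held 5663344 reads and library 2 held 15802610. In bulk tissue, fewer dividing cells and less of a transcript per cell cannot be told apart.

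A cell that divides first licenses its replication origins, when Cdc6 and Cdt1 load the ring of Mcm2 to Mcm7 onto DNA. Cyclin E and E2F then start S phase, the ring becomes the active helicase with Cdc45 and GINS, and polymerases copy the DNA from nucleotides made by ribonucleotide reductase and thymidylate synthase. Cyclin A and B with Cdk1, the Aurora and Polo kinases, kinesin motors and the spindle checkpoint then carry the cell through mitosis. In the growing skull vault, osteoprogenitors at the suture margins, blood precursors in the young marrow and muscle precursors are all known to divide.

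The sets are known to be read out by different promoter elements. S-phase genes typically carry E2F sites, and mitotic genes typically carry a CHR, the cell cycle genes homology region, beside CCAAT boxes. As examples, promoters are printed for the most abundant members of each set with a promoter entry and the element in the stretch. They were picked for holding it, so they do not show how common it is. The stretch runs from 150 bases before to 30 bases after the RefSeq start (GRCm38.p6), 5′ to 3′ on the strand of the gene. Capitals mark every match that lies whole within the stretch, on either strand. The E2F letters searched were TTCCCGC, then TTCGCGC and likewise TTGCCGC, and lastly TTGGCGC. Those of the CHR were TTTGAA and the palindrome TTCGAA, and a CCAAT box read CCAAT. On the other strand a CCAAT box reads ATTGG and the first CHR spelling reads TTCAAA. Matches can overlap, and the 10-base stretches in Mcm6 each hold an E2F match on both strands. Mcm7 has a second RefSeq start, and the one with more E2F matches is shown.

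Mcm7, chr5:138171854-138172033, minus strand: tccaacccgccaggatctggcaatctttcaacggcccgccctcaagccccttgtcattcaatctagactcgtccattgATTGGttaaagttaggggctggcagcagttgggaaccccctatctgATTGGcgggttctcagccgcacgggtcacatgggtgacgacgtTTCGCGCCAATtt
Mcm6, chr1:128359676-128359855, minus strand: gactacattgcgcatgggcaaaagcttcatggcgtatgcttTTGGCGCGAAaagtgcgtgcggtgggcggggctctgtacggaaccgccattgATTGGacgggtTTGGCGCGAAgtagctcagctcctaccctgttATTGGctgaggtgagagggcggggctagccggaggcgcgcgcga
Cdk1, chr10:69352883-69353062, minus strand: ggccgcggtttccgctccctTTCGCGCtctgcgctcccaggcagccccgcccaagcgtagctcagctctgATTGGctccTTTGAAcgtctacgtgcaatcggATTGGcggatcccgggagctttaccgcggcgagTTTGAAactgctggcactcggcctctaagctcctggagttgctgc
Top2a, chr11:99024160-99024339, minus strand: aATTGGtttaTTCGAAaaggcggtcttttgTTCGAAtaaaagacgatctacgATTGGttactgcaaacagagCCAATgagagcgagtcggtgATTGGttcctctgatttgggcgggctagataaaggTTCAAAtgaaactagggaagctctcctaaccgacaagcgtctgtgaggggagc

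All 4 genes lie on the minus strand of GRCm38 (mm10), Mcm7 on chromosome 5 from 138164583 to 138172422, Mcm6 on chromosome 1 from 128331590 to 128359664, Cdk1 on chromosome 10 from 69335146 to 69352938 and Top2a on chromosome 11 from 98992943 to 99024189 in GENCODE M21. Counted from the RefSeq start, the printed stretches span the promoter and the first bases of the transcript. The GENCODE gene start lies downstream of the Mcm6 stretch and upstream of the Mcm7 stretch. In the Mcm6 stretch the E2F matches came in overlapping pairs, centred 106 and 103 bases and again 43 and 40 bases before the start. A further one, centred 27 bases after the start, runs past the stretch. In the Cdk1 stretch the CHR matches stood 68.5 and 12.5 bases before the start, each with a CCAAT box upstream. Cdk1 also held an E2F match, 127 bases before the start.

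Over the full RefSeq window (250 bases before to 50 after the start), 16 genes of each set had a promoter entry, Pcna included. Mcm4, Pole, Gins1, Gins2, Ccne2, Ccna2, Aurkb and Kif20a had no entry and were not searched. A CHR was found in 13 of the 16 mitotic genes (81.3%) and in 3 of the 16 S-phase genes (18.8%), namely Cdc45, Mcm2 and Mcm7. The share was 21.7% over all 27025 genes of the promoter table and 15.8% over the 9962 that reached 1 CPM in both libraries. An E2F match was found in 9 S-phase genes (56.3%), which were Cdc6, Cdt1, Mcm3, Mcm5, Mcm6, Mcm7, Pola1, Rrm1 and Rrm2, and in 2 mitotic genes (12.5%), Cdk1 and Mki67. The corresponding shares were 10.9% of all genes and 18.7% of expressed genes. CCAAT boxes were in 14 mitotic and 11 S-phase genes, against 41.1% of all genes. All 13 mitotic genes with a CHR also held a CCAAT box. Of the 20 CHR matches in the mitotic set, 14 were centred within 100 bases of the start. Birc5, Nusap1 and Cenpe held no CHR. The S-phase genes E2f1, Ccne1 and Tyms and the mitotic genes Birc5 and Nusap1 held none of the 3 elements. Such matches are letters in a window and not bound sites, and other spellings of the elements were not searched.

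**Figure D1:**
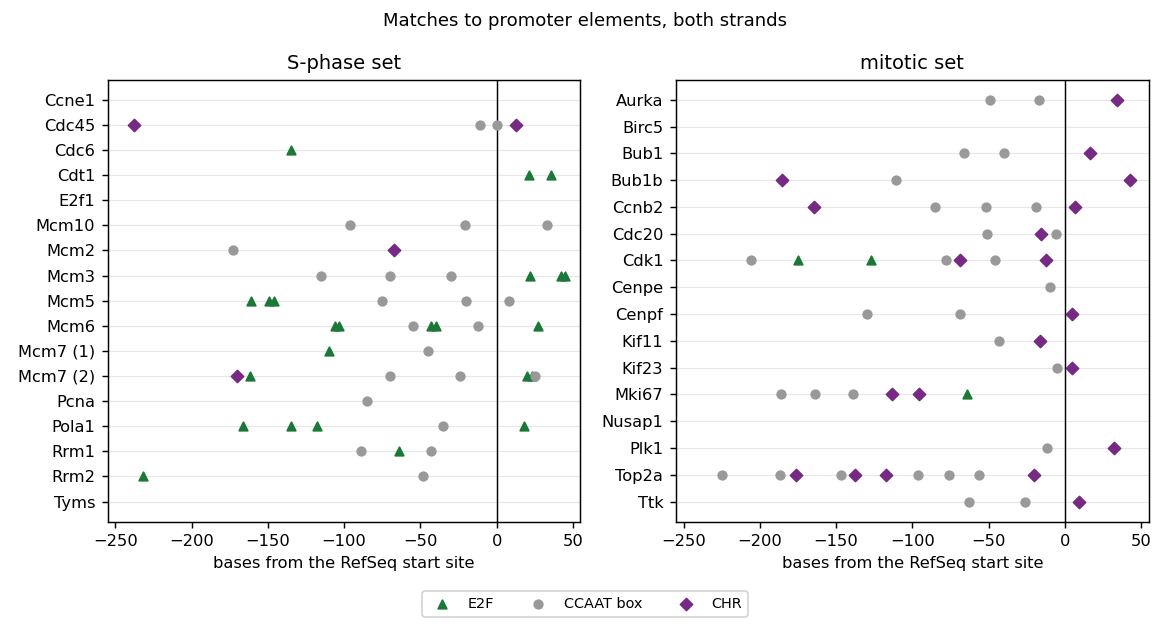
Position of each match to the E2F, CCAAT box and CHR letters (markers), in bases from the RefSeq start (horizontal axis), for the members of each set with a promoter entry (rows; Mcm7 has 2 starts). In the mitotic set 13 of 16 genes hold a CHR match, and in the S-phase set 9 of 16 hold an E2F match. CCAAT boxes are in 14 mitotic and 11 S-phase genes.

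A contrast in the same direction was seen in genes outside the member list. Among other replication genes with a promoter entry, E2F matches were in 26 of 42 and a CHR in 8. Among other mitotic genes, a CHR was in 35 of 49 (71.4%) and an E2F match in 13 (26.5%). That E2F share was above the 18.7% of expressed genes, whereas that of the mitotic members (12.5%) was below it.

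Levels are given as CPM, a target's share of its library's reads in counts per 1000000. The panel reads each gene through its own short amplicon, so CPM does not grow with gene length, but amplicons differ in efficiency and the order of different genes is only an order of reads. A level of 1 CPM or more in both libraries was found for 38 of the 39 members, all but Gins2, and for 13157 of all targets. A level of 10 CPM or more in both was found for 26 members and for 34.6% of all targets. Members ranged 120-fold, from Gins2 at a mean of 1.18 CPM to Mcm7 at 142 CPM, and their reads ran from 8 to 954 in library 1 and from 15 to 1822 in library 2. Together the members took 0.162% of all reads in library 1 and 0.130% in library 2. On log2(CPM + 1) the correlation of the libraries across the 39 genes was 0.938 by Pearson and 0.939 by Spearman, as a description of genes that share a library and its depth.

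**Figure D2:**
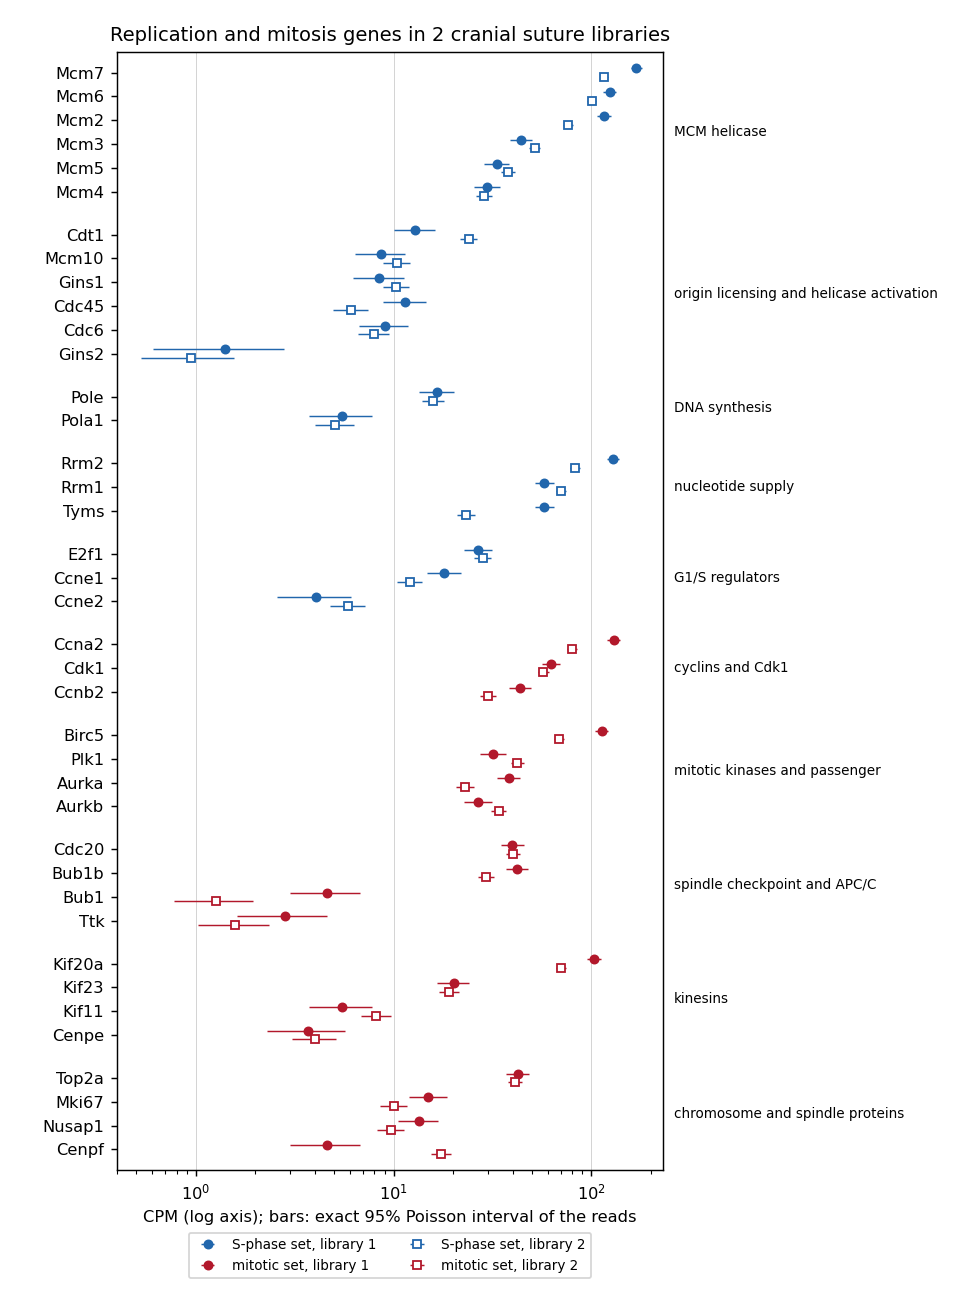
CPM (horizontal, log axis) of the 39 members measured (rows), ordered by role and by mean level, with filled circles for library 1, open squares for library 2 and bars for exact 95% Poisson intervals of the reads. Mcm7, Mcm6, Rrm2, Ccna2, Mcm2, Birc5 and Kif20a lie highest, and Gins2, Ttk and Bub1 lowest.

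The 6 genes of the MCM ring had the largest summed level of the role groups in the S-phase set, 515 CPM in library 1 and 410.1 CPM in library 2. Mcm7 stood at 168 CPM in library 1 and 115 CPM in library 2, Mcm6 at 124 and 100.4 CPM, and Mcm2 at 116 and 76.0 CPM. Mcm3 was at 44.1 and 51.6 CPM, Mcm5 at 33.4 and 38.0 CPM, and Mcm4 at 29.7 and 28.8 CPM. The 6 subunits kept the same order in both libraries, although they sit in the ring in equal number. In library 2 no neighbours in this order had overlapping 95% Poisson intervals. In library 1 those of Mcm6 and Mcm2 overlapped, as did those of Mcm5 and Mcm4. Mcm7 gave 5.68 times the CPM of Mcm4 in library 1 and 4.0 times in library 2.

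The factors that load the ring and turn it on were read far less. Cdc6, a loading ATPase, stood at 9.01 CPM in library 1 and 7.97 CPM in library 2. Cdt1, its partner in loading, stood at 12.9 and 24.0 CPM. Mcm10, which helps to start the helicase, was at 8.65 and 10.4 CPM, and Cdc45, a part of the active helicase, at 11.5 and 6.08 CPM. Of the GINS subunits, which complete the active helicase, Gins1 was at 8.48 and 10.3 CPM. Gins2 was at 1.41 CPM from 8 reads in library 1 and 0.949 CPM from 15 reads in library 2, and its intervals (0.610 to 2.78 and 0.531 to 1.57 CPM) overlapped. Only Cdt1 of these 6 passed 10 CPM in both libraries.

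Pole, the catalytic subunit of the leading-strand polymerase, was at 16.6 and 15.9 CPM, and Pola1, the catalytic subunit of the polymerase that extends primers, at 5.47 and 5.06 CPM. These were close between the libraries. The nucleotide supply genes were higher. Rrm2, the small subunit of ribonucleotide reductase, stood at 129 CPM in library 1 and 82.7 CPM in library 2, and Rrm1, its large subunit, at 57.7 and 69.99 CPM. Tyms, thymidylate synthase, was at 57.7 and 23.2 CPM. The 3 genes thus moved in different directions between the libraries.

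Among the regulators of S-phase entry, E2f1, a transcription factor of replication genes, was at 26.8 and 28.2 CPM. Ccne1 was at 18.0 and 12.1 CPM and Ccne2, the other cyclin E, at 4.06 and 5.89 CPM. Ccne1 was thus the higher of the cyclin E genes in both libraries.

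In the mitotic set Ccna2, cyclin A2, was the highest at 129 CPM in library 1 and 79.9 CPM in library 2. Cyclin A2 also acts in S phase, so its place in this set is a matter of definition. Cdk1, the kinase it activates, stood at 62.3 and 57.1 CPM, and Ccnb2, cyclin B2, at 43.4 and 30.1 CPM. Ccnb1 was not analysed here. All 3 genes had the larger value in library 1.

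Birc5 (survivin), a subunit of the chromosomal passenger complex that corrects kinetochore attachments, was at 113 and 68.8 CPM. Aurkb, the kinase of that complex, was at 26.7 and 34.0 CPM, the opposite order between the libraries. Its difference was called at full depth but not with library 2 thinned to the depth of library 1. Aurka, the kinase of the spindle poles, was at 38.1 and 22.9 CPM, and Plk1, the Polo kinase, at 32.0 and 42.3 CPM.

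Spindle checkpoint genes were uneven. Bub1b (BubR1) was at 42.0 and 29.3 CPM, whereas the checkpoint kinases Bub1 and Ttk (Mps1) were among the 3 lowest members. Bub1 was at 4.59 CPM from 26 reads in library 1 and 1.27 CPM from 20 reads in library 2, and Ttk at 2.83 and 1.58 CPM. Cdc20, the activator of the anaphase-promoting complex that the checkpoint restrains, was at 39.9 and 40.2 CPM.

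Of the kinesin motors, Kif20a, which acts in cytokinesis, was at 103 and 69.9 CPM, and Kif23, of the central spindle, at 20.1 and 19.05 CPM. Kif11, which pushes the spindle poles apart, was at 5.47 and 8.16 CPM, and Cenpe, the kinetochore motor, at 3.71 and 3.99 CPM. Top2a, which untangles sister DNA, stood at 42.4 and 41.1 CPM. Mki67, the gene of the Ki-67 proliferation antigen, was at 15.0 and 10.1 CPM and Nusap1, a spindle protein, at 13.4 and 9.68 CPM. Cenpf, an outer kinetochore protein, was at 4.59 and 17.4 CPM. Mki67, the common marker of dividing cells, was thus read about as often as Ccne1, and less often than Birc5 or Mcm7.

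The sets were then compared in level. The 20 S-phase genes had medians of 22.4 and 23.6 CPM in library 1 and library 2, and the 19 mitotic genes medians of 32.0 and 29.3 CPM, beside 2.65 and 3.35 CPM over all targets. The ratio of the medians, mitotic over S-phase, was 1.43 in library 1 and 1.24 in library 2. This order rests on the summary used, since the geometric means over the members were 21.7 CPM for the S-phase set and 21.4 CPM for the mitotic set. By summed reads the order was the opposite, with 882 CPM for the S-phase set and 741 CPM for the mitotic set in library 1 and 713 and 587 CPM in library 2. The mitotic set thus made up 45.7% of the members' reads in library 1 (exact 95% binomial interval 44.6 to 46.7%) and 45.2% in library 2 (44.5 to 45.8%). These intervals overlap, and the sums are dominated by the highest genes of each set. The 7 highest members by mean CPM, Mcm7, Mcm6, Rrm2, Ccna2, Mcm2, Birc5 and Kif20a, belong to both sets.

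Each gene was next compared between the libraries by an exact binomial test, two-sided, on the recovered reads, with Benjamini-Hochberg adjustment over all targets and a threshold of 0.05. This compares the 2 libraries and not conditions, and it covers counting error only. It called 37.0% of all targets, and 69.5% of the 9192 targets averaging at least 10 CPM. It put 15 of the 39 members higher in library 1 and 5 higher in library 2, and left 19 uncalled. Among all targets averaging 1 CPM or more, 26.8% were higher in library 1 and 32.9% were higher in library 2. Of the 28 members averaging at least 10 CPM, 18 were called, a share (64.3%) near that of all such targets. With a change of at least 1.5-fold on log2(CPM + 1) required as well, 8 members (20.5%) were higher in library 1 and 2 in library 2, beside 17.0% and 22.1% of all targets averaging 1 CPM or more.

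In the S-phase set 7 genes were higher in library 1 (Mcm2, Mcm6, Mcm7, Cdc45, Rrm2, Tyms and Ccne1) and 2 in library 2 (Cdt1 and Rrm1). In the mitotic set 8 were higher in library 1 (Ccna2, Ccnb2, Aurka, Birc5, Bub1, Bub1b, Kif20a and Mki67) and 3 in library 2 (Aurkb, Plk1 and Cenpf). The summed CPM was 1.24-fold higher in library 1 for the S-phase set (interval 1.20 to 1.28) and 1.26-fold higher for the mitotic set (1.22 to 1.31). The median difference in log2(CPM + 1), library 1 minus library 2, was 0.08 for the S-phase set and 0.43 for the mitotic set, beside -0.07 over all targets averaging 1 CPM or more. Without Ccne1, Ccne2, E2f1 and Ccna2 these medians were 0.09 and 0.28. In the lists of other genes below, the order of the medians was the opposite, at 0.40 for replication and 0.20 for mitosis. The difference between the sets was not tested.

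**Figure D3:**
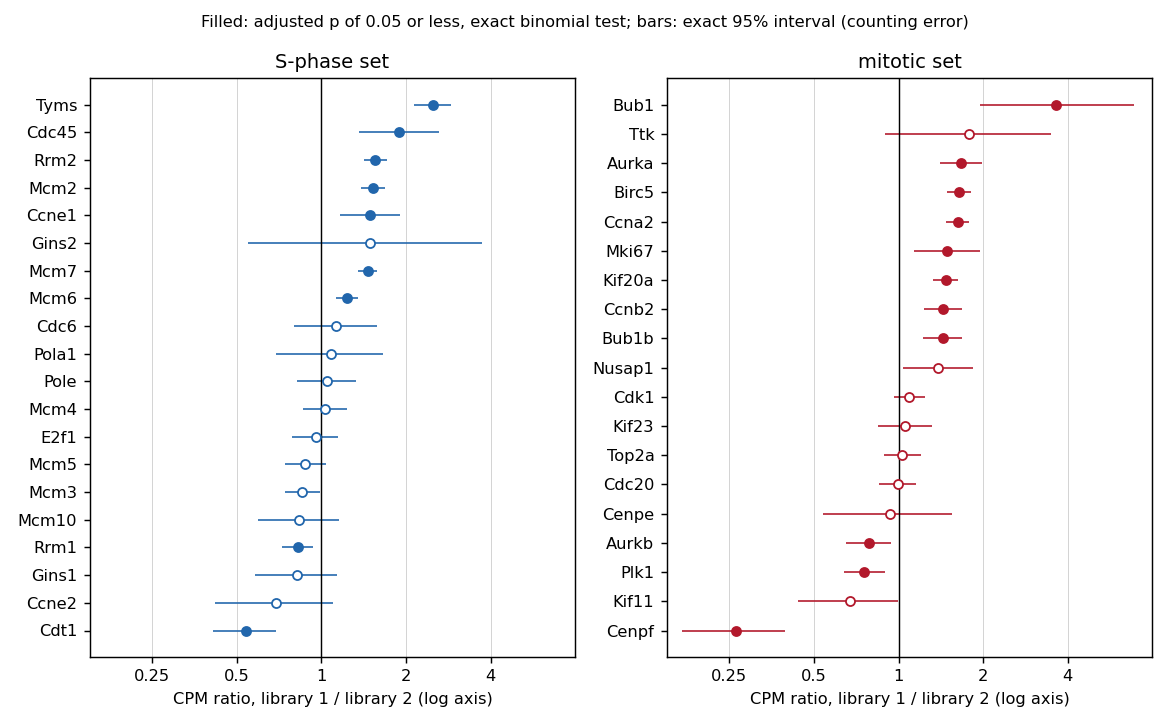
Ratio of CPM in library 1 to that in library 2 (horizontal, log axis) for each member, by set, with exact 95% intervals that cover counting error, and filled points where the exact binomial test called a difference. Most points lie between 0.5 and 2, with Tyms and Bub1 above 2 and Cenpf near 0.26.

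Changes were mostly small. Of the 28 members averaging at least 10 CPM, 20 (71.4%) differed by less than 1.5-fold, against 59.8% of all such targets, and 2, Tyms and Cenpf, differed by more than 2-fold (7.14%, against 16.5%). Tyms was 2.49-fold higher in library 1 (interval 2.14 to 2.89, adjusted p = 3.54e-30, exact binomial test). Cenpf was 3.79-fold higher in library 2 (interval 2.53 to 5.91, adjusted p = 1.17e-13, exact binomial test). Bub1, at low reads, was 3.63-fold higher in library 1 (interval 1.95 to 6.85, adjusted p = 7.27e-05, exact binomial test). Bub1 and Cenpf, both proteins of the outer kinetochore, had the same 26 reads in library 1 and moved in opposite directions. Cdc45 was 1.89-fold higher in library 1 and Cdt1 1.86-fold higher in library 2. The genes closest between the libraries were Cdc20 (ratio 0.993), Mcm4 (1.03) and Top2a (1.03), with intervals of 0.849 to 1.16, 0.858 to 1.23 and 0.886 to 1.20.

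Other genes of the same pathways, taken from lists set by function, gave the wider view. Of 50 other replication genes, 49 had at least 1 CPM in both libraries. By the same test 24 were higher in library 1 and 3 in library 2, and 23 were uncalled. Of the 33 averaging at least 10 CPM, 19 were called (57.6%), beside 69.5% of all such targets. The highest were Rpa1, of the single-strand binding complex, at a mean of 111 CPM, Uhrf1, which guides maintenance methylation, at 97.7 CPM and Prim2, a primase subunit, at 87.9 CPM. Orc6, a subunit of the origin recognition complex, had the largest difference toward library 1, at 17.1 CPM in library 1 and 2.78 CPM in library 2. Topbp1, which helps to fire origins, had the largest toward library 2, at 26.8 and 48.1 CPM. The summed CPM of the list was 1.24-fold higher in library 1 (interval 1.21 to 1.27).

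Of 57 other mitotic genes, 55 had at least 1 CPM in both libraries. By the same test 18 were higher in library 1 and 9 in library 2, and 30 were uncalled. Of the 36 averaging at least 10 CPM, 23 were called (63.9%), beside 69.5% of all such targets. Ube2s and Ube2c, ubiquitin-conjugating enzymes of the anaphase-promoting complex, averaged 267 and 111 CPM, and both were higher in library 2. Bub3, a checkpoint protein, averaged 118 CPM and was higher in library 1, and Cdc25b, a phosphatase that activates Cdk1, also averaged 118 CPM and was higher in library 2. Cdca3 had the largest difference toward library 1, at 101.4 and 25.2 CPM, and Foxm1, the transcription factor of many mitotic genes, the largest toward library 2, at 9.01 and 17.7 CPM. The summed CPM was 1.12-fold higher in library 1 (interval 1.09 to 1.15). The share of genes called higher in library 1 was 48.0% for the replication list and 31.6% for the mitotic list, beside the 26.8% of all targets averaging 1 CPM or more. The share called higher in library 2 was 6% and 15.8%, beside 32.9% of such targets. The median difference in log2(CPM + 1) over genes averaging 1 CPM or more was 0.40 for the replication list and 0.20 for the mitotic list. In the member sets the mitotic median was the larger, at 0.43 beside 0.08. The difference between these lists was not tested.

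Upstream of both sets, 17 of 18 genes of G1 cyclins, their kinases, pocket proteins and E2F and Myc factors reached 1 CPM in both libraries. Ccnd3, cyclin D3, averaged 362 CPM, its kinase Cdk4 325 CPM and Ccnd2 137 CPM. The same exact test called 7 of the 18 toward library 1 and 6 toward library 2. Of the 14 averaging at least 10 CPM, 11 were called (78.6%), beside 69.5% of all such targets. Rbl1 (p107), a pocket protein, was at 11.8 and 2.34 CPM and had the largest difference toward library 1, whereas its relative Rbl2 (p130), known from resting cells, was at 15.7 and 27.1 CPM and had the largest toward library 2.

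The inhibitors of cyclin-dependent kinases were led by Cdkn1c (p57), an imprinted growth restrainer, at 869 CPM in library 1 and 595 CPM in library 2, above every member of the replication and mitosis sets. Cdkn1a (p21) followed at 314 and 217 CPM, and Cdkn2d (p19) averaged 40.8 CPM. Of the 7 inhibitors, 4 were called, each of them higher in library 1. These 4 were among the 5 averaging at least 10 CPM, beside 69.5% called of all such targets. The largest difference toward library 1 was that of Cdkn2c, at 23.5 and 14.6 CPM. Toward library 2 it was that of Cdkn2b, which was not called, at 0.177 CPM from 1 read and 0.823 CPM. Cdkn2a was listed at 0 in library 1 and at 0.190 CPM in library 2, both at or under the limit set by a count of 0 (3 reads, or 0.530 and 0.190 CPM). Meiotic genes served as a low reference. Of 12, only Dmc1 (4.77 CPM) and Rec8 (4.13 CPM) reached 1 CPM in both libraries, and Syce1 followed at 0.392 CPM. Dmc1 was the 1 gene of this list called, higher in library 1, and Spo11 had the largest difference toward library 2, at 0 and 0.316 CPM.

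**Figure D4:**
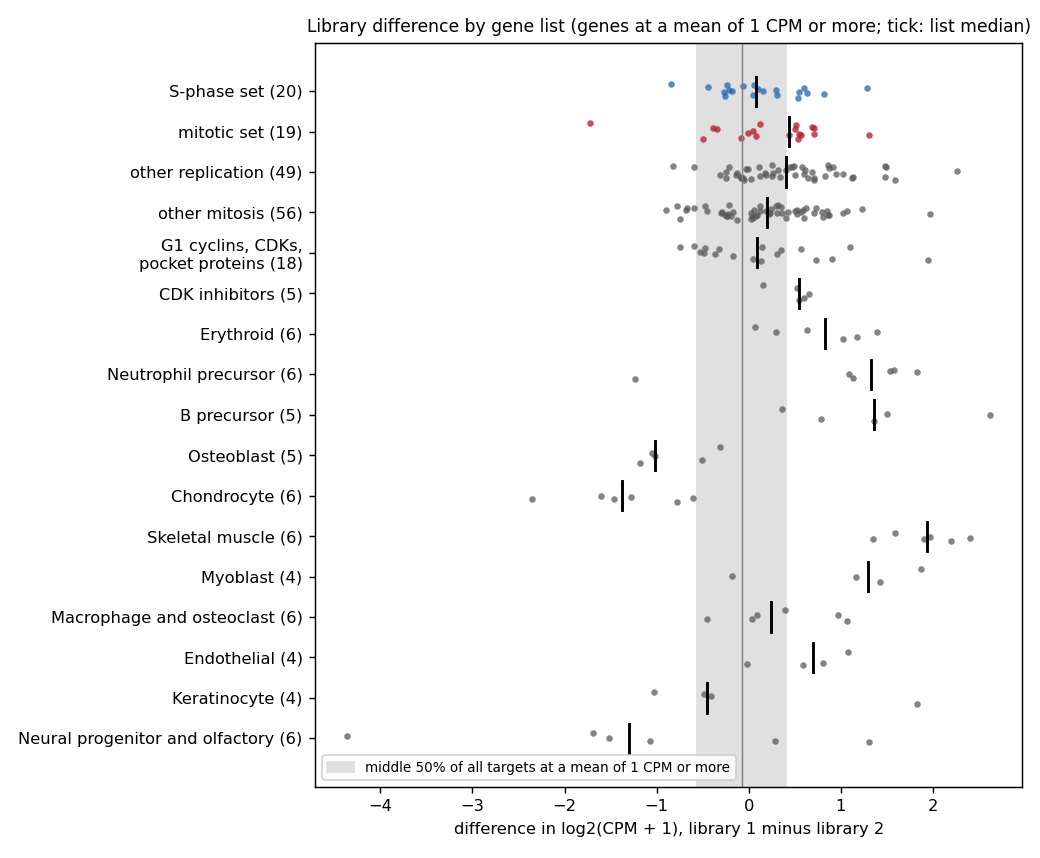
Difference in log2(CPM + 1), library 1 minus library 2 (horizontal axis), for each gene (points) of the member sets, the other cell cycle lists and cell type marker lists (rows, with the number of genes averaging 1 CPM or more), with black ticks at list medians and grey for the middle 50% of all such targets. The medians of the S-phase and mitotic sets are 0.08 and 0.43, and those of other replication and other mitotic genes 0.40 and 0.20. Those of skeletal muscle and erythroid markers are 1.94 and 0.83, and those of osteoblast and chondrocyte markers -1.02 and -1.37.

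The libraries also differed in cell type markers, which is given here beside the members' difference. For scale, the exact binomial test called 69.5% of all targets averaging at least 10 CPM, in either direction. Of targets averaging 1 CPM or more, it put 26.8% higher in library 1 and 32.9% higher in library 2. Markers of blood lineages were mostly higher in library 1. In the same test this held for 5 of 6 erythroid markers (summed level 1607 and 1304 CPM, highest gene Alas2, a heme synthesis enzyme). It held for 5 of 6 neutrophil precursor markers (summed 663 and 411 CPM, highest Ngp, a granule protein), with Ltf higher in library 2. It also held for 4 of 5 B precursor markers (summed 53.5 and 18.9 CPM, highest Cd79b, of the B cell receptor). Of 4 myoblast markers, 3 were higher in library 1 (summed 169 and 80.0 CPM, highest Myog). So were all 6 skeletal muscle markers (summed 39216 and 11878 CPM, highest Mylpf). Endothelial markers were higher in library 1 in 3 of 4 cases (summed 593 and 429 CPM, highest Pecam1). Macrophage and osteoclast markers were higher in library 1 in 3 of 6, with 1 higher in library 2 (summed 3629 and 2391 CPM, highest Mmp9).

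The opposite was seen for skeletal cells. All 5 osteoblast markers were higher in library 2 (summed level 1323 and 2238 CPM, highest Ibsp, a bone matrix protein). So were all 6 chondrocyte markers (summed 1066 and 3538 CPM, highest Col2a1). Keratinocyte markers (summed 79.6 and 98.3 CPM, highest Krt15) were higher in library 2 in 2 of 4 cases and in library 1 in 1. Neural progenitor and olfactory markers (summed 169 and 379 CPM, highest Omp) were higher in library 2 in 4 of 6 cases and in library 1 in 1. None of the markers measured was at 0 in either library. The part of these cell types in the members' difference was not tested.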

How the data were processed

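Total RNA of the 2 tissue samples was made into libraries with the Ion AmpliSeq mouse transcriptome panel, per the labels' protocols. Per the submitters' processing notes the build was mm10. The aligner, counter and filters were not given in the sources used here. Values are CPM as the authors deposited them, scaled to each library's total. All values above 0 (100%) were multiples of a step of 0.177 or 0.0633 CPM, within 0.02 of a read, so reads were recovered (5663344 and 15802610). They carry no molecular identifiers, and intervals cover counting error only.

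The main test, an exact two-sided binomial test of reads against library totals (scipy 1.17.1), was adjusted over 23930 targets and called 8863. It was tested on simulated data with counting error only, the error it assumes, so extra variation between libraries was not covered. A model contrasting 1 library with the other has no residual degrees of freedom, so edgeR 4.0.16 was used for scaling factors only. Differences are on log2(CPM + 1), with a pseudocount of 1 CPM, which understates changes of low genes. Exact Poisson (levels) and Clopper-Pearson (shares, ratios) intervals are at 95%. The members and the lists of other cell cycle and marker genes were chosen with earlier results of these data known. Named genes were all members, the 3 highest genes and the largest difference each way of each pathway list, and the highest gene of each marker list. Others, such as Ube2c, Ltf and Cdkn2a, were named after their values were seen. Promoters came from RefSeq (GRCm38.p6). Of 33 member promoters, 30 shared bases in sense with the first part of a GENCODE M21 transcript of the gene. This checks the strand and not the exact start. Protein sequences were not used here. Alternatives were other scalings, pseudocounts, detection levels, set limits, depth and call rules.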

Additional observations from a re-analysis of the deposited data

How the results depend on the processing

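The ratio of the set medians, mitotic over S-phase, was 1.33 on the mean CPM. It was 1.24 to 1.43 with either library left out, 1.04 without Ccne1, Ccne2, E2f1 and Ccna2, 1.11 with Ccna2 counted in the S-phase set, and turned to 0.988 with geometric means. The S-phase level was 23.0 CPM (22.4 to 23.6 with either library left out), and 29.2, 27.5 and 21.7 CPM under those 3 settings. The mitotic level was 30.5 CPM (29.3 to 32.0) and 21.4 CPM as a geometric mean. The median log2 difference of the mitotic set, 0.43, was 0.25 with a pseudocount of 5 CPM and 0.28 without the 4 regulators, and its distance from the S-phase set, 0.36, was then 0.20 and 0.18. That of all members, 0.12, was 0.16 with median-of-ratios scaling and 0.21 for members averaging at least 10 CPM. Scaling moved all log2 differences by at most 0.04. Requiring 1.5-fold as well left 8 members higher in library 1 (4 S-phase, 4 mitotic) and 2 in library 2 (1 and 1), beside 17.0% and 22.1% of all targets averaging 1 CPM or more. With library 2 thinned to the depth of library 1, Aurkb, Ccne1 and Mki67 were no longer called. No paired analysis was possible because there is 1 group. Depth limits low members such as Gins2, Ttk and Bub1, read 8 to 26 times in library 1.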

Other observations

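Subunits of a complex that sit together in fixed number differed widely in reads. These complexes were put together after their values were seen. The highest subunit exceeded the lowest 11.9-fold in RPA (Rpa1 over Rpa3, means of 111 and 9.33 CPM) and 10.4-fold in GINS (Gins4 over Gins2, 12.3 and 1.18 CPM). It did so 6.12-fold in the clamp loader (Rfc5 over Rfc3), 5.47-fold in the origin recognition complex (Orc4 over Orc1), 4.85-fold in the MCM ring (Mcm7 over Mcm4) and 2.99-fold in the chromosomal passenger complex (Birc5 over Aurkb). The subunits kept the same order in both libraries for the MCM ring, GINS and RPA, and changed order for the other 3 complexes. Whether amplicon efficiency or transcript level sets these ratios was not tested.

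Fen1, the flap endonuclease that finishes lagging-strand fragments, was at 0.706 CPM in library 1 against 0.759 CPM in library 2, the lowest of the other replication genes. Lig1, the ligase that seals the same fragments, was at 30.4 and 32.3 CPM. Neither gene was called between the libraries. Fen1 rested on 4 reads in library 1 and 12 in library 2, and its ratio interval was wide (0.219 to 3.07). That of Lig1 was 0.787 to 1.12.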
